A study of Mus musculus with 16 samples.

Results

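Cells hold their cholesterol steady through the SREBP pathway, and its regulators and target genes for sterol uptake were followed here in injured mouse spinal cord. The genes are Srebf1 and Srebf2, which encode the transcription factors SREBP1 and SREBP2, Scap, which encodes their escort protein, Insig1 and Insig2, which encode the proteins that hold the escort in the endoplasmic reticulum, Stard4, which encodes a carrier that moves cholesterol between membranes, and Vldlr and Lrp8, which encode receptors for lipoproteins and for reelin. They were chosen by name for their place in the pathway, with earlier results of these data known, and are 8 of the 24411 genes in the data. All 8 passed the filter on low values and were among the 16091 genes tested.

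RNA of the spinal cord was sequenced in 16 female C57BL/6J mice. In the SCI + Atorvastatin group, 7 mice had a 0.25 mm lateral compression of the thoracic cord at 12 weeks of age and then received atorvastatin at 10 mg/kg every day for 4 weeks, starting 2 weeks after injury. In the SCI + Vehicle group, 7 mice had the same injury and received the same mixture of DMSO, polyethylene glycol, Tween and saline without the drug. The Uninjured Control group is 2 mice with neither injury nor treatment, which is few for estimating a spread. The labels give 12 weeks of age for these mice too, and by the study's methods their cords were taken at a younger age than the injured cords, so age and injury cannot be told apart. A 5 mm piece of cord around the injury, or the same level in the controls, was taken 6 weeks after injury, so each library mixes neurons, glia, vessels and infiltrating cells. The samples are labelled as biological replicates. Libraries held 14823292 to 25579826 counts.

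When membranes of the endoplasmic reticulum are rich in cholesterol, SCAP is bound by INSIG proteins and keeps the SREBP precursors from leaving. When sterols run low, SCAP carries SREBP to the Golgi, where proteases free its active part, and this part binds sterol regulatory elements in the promoters of genes for sterol synthesis and uptake. SREBP2 mainly drives cholesterol genes and SREBP1 mainly drives fatty acid genes. INSIG1 is itself a target, which closes a feedback loop, while Srebf2 is activated by its own product. Statins such as atorvastatin block the rate-limiting enzyme of cholesterol synthesis and in liver raise SREBP activity. In the nervous system most cholesterol is made locally, by oligodendrocytes for myelin and by astrocytes for export to neurons. Whether atorvastatin altered the RNA of injured cord at this time after injury, and how injured cord differs from uninjured cord, are the questions the groups address.

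Promoters of 2 of the genes are shown. That of Srebf2 held the sterol regulatory element searched for, and that of Insig1 held an E-box but not this element. RefSeq (GRCm38.p6) had a promoter for 7 of the 8 genes, in 15 windows since some genes have several start sites. In the 250 bases before each start site, 4 motifs were searched on both strands. They were the sterol regulatory element ATCACCCC (SRE), the E-box CACGTG, the NF-Y box CCAAT and the GC box GGGCGG, the last of which Sp1 binds. Capitals mark the matches, read 5′ to 3′ along the gene, in the part of each window that lies before the first annotated base of the gene.
Srebf2, chr15:82147019-82147180, plus strand: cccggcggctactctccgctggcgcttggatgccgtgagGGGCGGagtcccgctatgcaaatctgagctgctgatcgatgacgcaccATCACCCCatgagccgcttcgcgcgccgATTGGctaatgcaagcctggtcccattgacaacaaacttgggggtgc
Insig1, chr5:28071162-28071362, plus strand: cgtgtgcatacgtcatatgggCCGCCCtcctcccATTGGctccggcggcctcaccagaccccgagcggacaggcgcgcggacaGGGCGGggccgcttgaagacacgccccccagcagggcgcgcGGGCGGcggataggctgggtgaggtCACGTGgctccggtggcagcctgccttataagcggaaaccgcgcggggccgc

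The Srebf2 sequence holds the SRE, at 163 bases before the RefSeq start site, followed by an NF-Y box on the reverse strand at 135 bases. It was the only member window of 15 with this SRE, which 0.654% of all 32851 promoters hold. The Insig1 sequence holds an E-box at 101 bases before the start, an NF-Y box on the reverse strand at 216 bases, and GC boxes at 229, 167 and 126 bases. An E-box was in 2 of the 15 windows, those of Insig1 and Scap, against 6.02% of all promoters. NF-Y boxes were in 6 windows of 5 genes and GC boxes in 8 windows of 6 genes, against 33.8% and 32.7% of all promoters. None of the matches in these sequences overlap each other. A match is a run of letters, and no binding was measured.

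The uninjured libraries stand apart from the others in ways that bear on every comparison with them. They held a count for 12732 genes in control mouse 1 and 12356 in control mouse 2, against 16399 to 19338 in the injured mice. In injured cord, 3245 genes averaged between 200 and 500 counts. Of these, 13.9% were at 0 in control mouse 1, 17.6% in control mouse 2 and at most 0.247% in any injured mouse. These genes were chosen by their level in injured cord, so few zeros there follow from the choice. Genes that are low in uninjured cord can be among them, and the reverse choice was not made. All 8 genes of a liver marker list were present in both controls, with a summed level, in TPM (a level scaled for gene length and depth), of 6231 TPM in control mouse 1 and 1210 TPM in control mouse 2, and at 1.68 to 11.6 TPM in injured mice, where Hpd was at 0 counts in every mouse. The 8 microglia or macrophage markers summed to 329 and 479 TPM in the controls and to 3614 to 6121 TPM in injured cord. The 8 astrocyte markers summed to 4952 and 6127 TPM against 9464 to 11893 TPM, and the 8 neuron markers to 9726 and 12291 TPM against 6049 to 9854 TPM. Gfap weighed most in the astrocyte sum, at 1340 and 2085 TPM against a median of 6934 TPM. On counts, 4 astrocyte markers had log2 fold changes above 0 and 4 below in each injured group. Of the 8 neuron markers, 7 were below 0 in SCI + Vehicle and 8 in SCI + Atorvastatin. In TPM, Gad1 was not lower, at 81.2 and 66.5 against a median of 85.6. Oligodendrocyte markers overlapped, at 12995 and 18231 TPM against 13433 to 19301 TPM. The part of these differences in the results on the sterol genes was not tested. Among the injured mice, SCI + Vehicle replicate 1 stands apart. Its log2 counts correlated with those of the other mice of its group at r of 0.917 to 0.929, where the other pairs of the group were at 0.955 to 0.971.

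In SCI + Vehicle cord, 3 of the 8 genes were called against Uninjured Control. Insig1 and Stard4 fell and Lrp8 rose. In SCI + Atorvastatin cord, 6 of 8 were called, where Insig1, Stard4, Srebf2 and Scap fell and Lrp8 and Srebf1 rose. Between SCI + Atorvastatin and SCI + Vehicle, 0 of 8 were called. Without SCI + Vehicle replicate 1, 4 of the 8 were called in SCI + Vehicle, namely Insig1, Stard4, Srebf1 and Srebf2, and 0 between treatments. That fit called 4285 of all genes in SCI + Vehicle. Without control mouse 1, more of the 8 were called in SCI + Vehicle, but so were more of all genes, and a lone control has no spread. A gene was called against the controls when its Benjamini-Hochberg adjusted p in edgeR's quasi-likelihood test over all 16091 genes was below 0.05 and its change above 25%. Of all genes tested, 29.8% were called in SCI + Vehicle and 38.9% in SCI + Atorvastatin, so 3 of 8 and 6 of 8 stand against a high background. Both comparisons share the same 2 control mice, so they are not independent of each other. In whole tissue, a lower level because fewer cells of a type are present cannot be told apart from less RNA per cell.

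**Figure D1:**
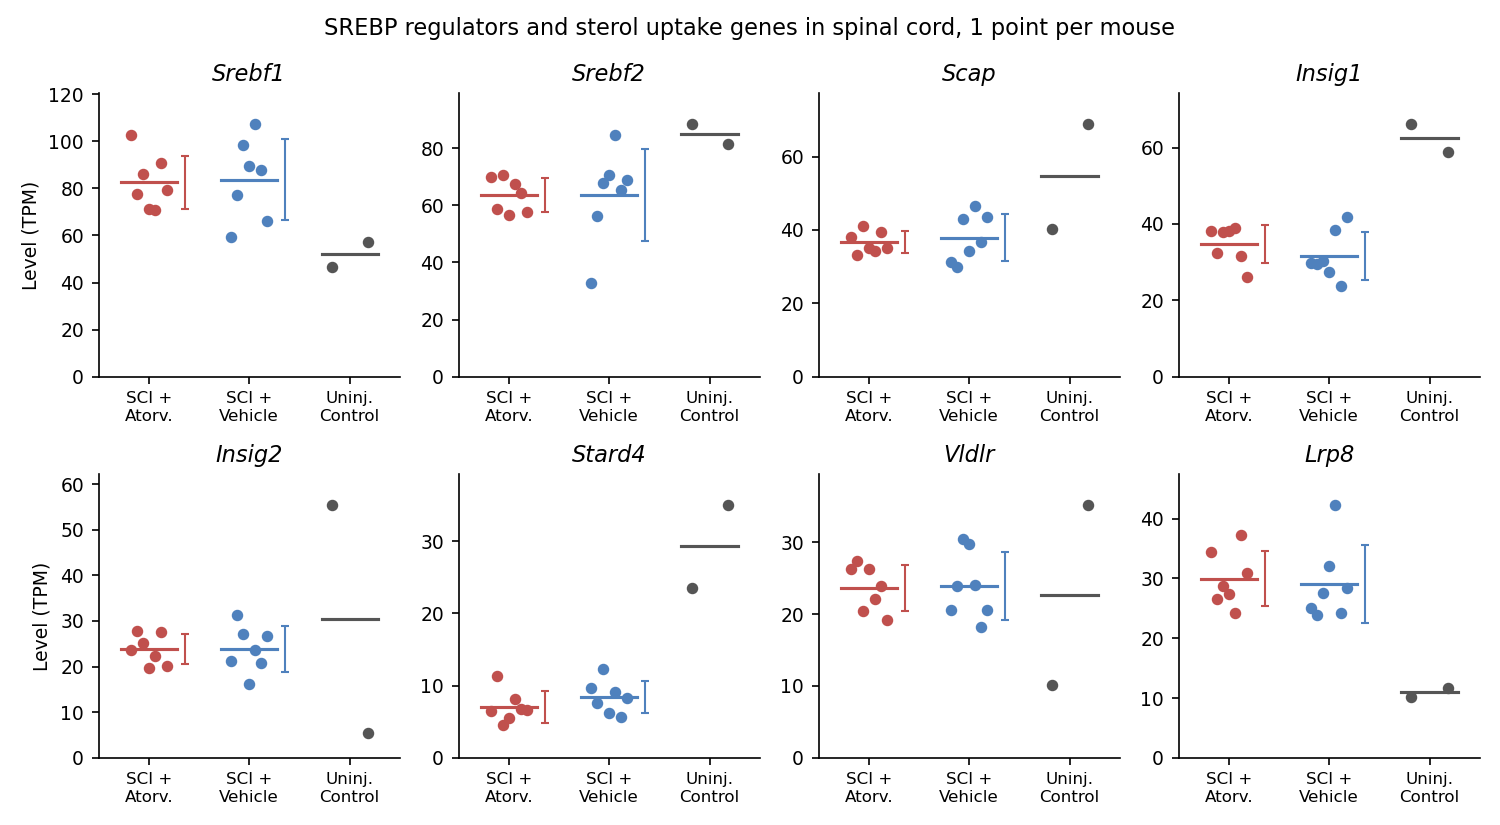
Level of each gene in TPM (vertical axes, from 0) in every mouse, by group. Points are mice, horizontal lines are group means and bars are the SD of the groups of 7. Insig1 and Stard4 lie below both controls in all 14 injured mice and Lrp8 above both, while the controls themselves lie far apart for Insig2 and Vldlr. Of all genes, 6.67% lie below both controls and 26.3% above in SCI + Vehicle, and 8.91% and 32.3% in SCI + Atorvastatin.

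Srebf1 was the most abundant of the genes per unit of length in injured cord. Its level was 46.7 and 57.2 TPM in the controls, 59.2 to 107 TPM with a median of 87.7 TPM in SCI + Vehicle, and 70.9 to 102 TPM with a median of 79.1 TPM in SCI + Atorvastatin. All injured mice lay above both controls in TPM, as for 26.3% of all genes in SCI + Vehicle and 32.3% in SCI + Atorvastatin, and 1 vehicle mouse fell between them in CPM, counts scaled by library size and TMM. On the log2 scale, the fold change was 0.43 ± 0.177 (SE) in SCI + Vehicle, which was not called (adjusted p = 0.0926), and 0.45 ± 0.123 in SCI + Atorvastatin, which was (adjusted p = 0.0148). Without SCI + Vehicle replicate 1 the former was called at 0.49 (adjusted p = 0.0377).

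Srebf2 went the other way from Srebf1. Its level was 88.5 and 81.5 TPM in the controls. It was 32.6 to 84.5 TPM with a median of 67.7 TPM in SCI + Vehicle, and 56.5 to 70.7 TPM with a median of 64.3 TPM in SCI + Atorvastatin. The lowest value belongs to SCI + Vehicle replicate 1, where the next mouse was at 56.1 TPM. The log2 fold change against controls was -0.51 ± 0.111 in SCI + Atorvastatin (adjusted p = 0.00454). It was -0.54 ± 0.206 in SCI + Vehicle (adjusted p = 0.0706) and was called there without replicate 1 at -0.44 (adjusted p = 0.0225). In CPM every injured mouse lay below both controls, which 10.7% of all genes did in SCI + Vehicle and 14.2% in SCI + Atorvastatin.

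The ratio of Srebf1 to Srebf2 within a library does not depend on the scaling between libraries. In CPM it was 0.588 and 0.689 in the controls, 0.935 to 1.59 in SCI + Vehicle and 1.00 to 1.35 in SCI + Atorvastatin. Each of the 14 injured mice thus lay above both controls. With 2 controls against 7 mice, this is given as a description only. How often ratios of other genes separate in this way was not counted. Single genes often did, with 10.7% of all genes below both controls in CPM in SCI + Vehicle and 14.2% in SCI + Atorvastatin. In TPM, 26.3% and 32.3% lay above both.

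Scap was at 40.3 and 68.9 TPM in the controls, a wide gap. It ranged from 29.9 to 46.5 TPM with a median of 36.8 TPM in SCI + Vehicle and from 33.2 to 41.2 TPM with a median of 35.2 TPM in SCI + Atorvastatin. The groups overlapped in TPM and did not in CPM. In CPM, 10.7% of all genes lay below both controls in SCI + Vehicle and 14.2% in SCI + Atorvastatin. Its log2 fold change was -0.46 ± 0.129 in SCI + Atorvastatin (adjusted p = 0.0179) and -0.42 ± 0.161 in SCI + Vehicle (adjusted p = 0.0750). Without control mouse 2 the former was -0.25 (adjusted p = 0.156), and without control mouse 1 the latter was called at -0.60 (adjusted p = 0.0199).

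Insig1, the INSIG gene under SREBP control, had clearly separate groups. Its level was 66.2 and 58.7 TPM in the controls. It was 23.8 to 41.7 TPM with a median of 29.7 TPM in SCI + Vehicle and 26.1 to 39.0 TPM with a median of 38.0 TPM in SCI + Atorvastatin. The highest injured mouse was thus below the lower control in TPM, as for 6.67% of all genes in SCI + Vehicle and 8.91% in SCI + Atorvastatin, and also in CPM. The log2 fold change was -1.21 ± 0.212 in SCI + Vehicle (adjusted p = 0.00203), or 0.433 times the control level, and -1.12 ± 0.156 in SCI + Atorvastatin (adjusted p = 0.000380). It stayed called without any single mouse, between -1.37 and -1.02 in SCI + Vehicle and between -1.29 and -0.94 in SCI + Atorvastatin. With a separate spread for each group (voom with group quality weights), which gives the 2 controls less weight, the adjusted p was 0.247 and 0.223.

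Insig2, the INSIG gene that in liver is less tied to SREBP, could not be placed against the controls. Its level was 55.5 TPM in control mouse 1 and 5.49 TPM in control mouse 2, from 1371 and 172 counts. It was 16.2 to 31.3 TPM with a median of 23.6 TPM in SCI + Vehicle and 19.7 to 27.8 TPM with a median of 23.7 TPM in SCI + Atorvastatin. All injured mice lay between the controls. The log2 fold change was -0.53 ± 0.522 (adjusted p = 0.483) and -0.53 ± 0.538 (adjusted p = 0.477). Its sign was set by the control used, since it was 1.76 and 1.77 without control mouse 1 and -1.39 and -1.38 without control mouse 2. The control with the higher Insig2 is also the one with more liver marker RNA, whose part in the difference was not tested.

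Stard4 showed the largest change of the 8 genes. Its level was 23.5 and 35.0 TPM in the controls, 5.60 to 12.4 TPM with a median of 8.28 TPM in SCI + Vehicle and 4.52 to 11.3 TPM with a median of 6.67 TPM in SCI + Atorvastatin. Every injured mouse lay below both controls, at 12.4 TPM or less. In TPM, 6.67% of all genes did so in SCI + Vehicle and 8.91% in SCI + Atorvastatin. Its log2 fold change was -1.81 ± 0.271 in SCI + Vehicle (adjusted p = 0.000854), 0.285 times the control level, and -1.95 ± 0.279 in SCI + Atorvastatin (adjusted p = 0.000444), 0.259 times. Stard4 alone of the 8 was also called with a separate spread for each group, at -1.74 (adjusted p = 0.0197) and -1.93 (adjusted p = 0.00626). The size rested on which control was used, with -2.22 and -2.36 without control mouse 1 and -1.24 and -1.39 without control mouse 2.

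Vldlr, a receptor for apolipoprotein-bearing particles and for reelin, behaved like Insig2. It was at 10.1 TPM in control mouse 1 and 35.2 TPM in control mouse 2. It was 18.2 to 30.5 TPM with a median of 23.9 TPM in SCI + Vehicle and 19.2 to 27.4 TPM with a median of 23.9 TPM in SCI + Atorvastatin, all between the controls. Its log2 fold changes were 0.00 ± 0.324 (adjusted p = 1.0) and 0.02 ± 0.312 (adjusted p = 0.976). Without control mouse 1 it was -0.59 and -0.58, and without control mouse 2 it was 1.06 and 1.07.

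Lrp8, the other reelin receptor, was the receptor that rose. It was at 10.2 and 11.7 TPM in the controls, 23.8 to 42.3 TPM with a median of 27.5 TPM in SCI + Vehicle and 24.2 to 37.2 TPM with a median of 28.7 TPM in SCI + Atorvastatin. All injured mice lay above both controls in TPM, as did 26.3% and 32.3% of all genes. The log2 fold change on counts was 0.72 ± 0.235 (adjusted p = 0.0415) and 0.78 ± 0.224 (adjusted p = 0.0190). On log2(TPM + 1) it was 1.31 and 1.36. Control mouse 1 had 0.153 TPM per CPM of Lrp8 and control mouse 2 had 0.320, against 0.318 to 0.371 in injured mice, so the size differs with the unit. In SCI + Vehicle the adjusted p was 0.0523 to 0.0732 when any 1 vehicle mouse was left out. It was 0.224 without control mouse 2, at 0.35, and in SCI + Atorvastatin 0.0710, at 0.41.

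Levels against the controls were also read against the shift of all genes. The median log2 fold change over all genes tested stood at 0.17 for SCI + Vehicle, and for SCI + Atorvastatin it stood at 0.21. It was 0.49 and 0.52 on log2(TPM + 1) and 0.41 and 0.43 with group quality weights. The 8 genes had medians of -0.47 and -0.49, with 3 of 8 above 0, where 57.4% and 58.3% of all genes were above 0. Relative to the median of all genes, Insig1 was at -1.38 and -1.33, Stard4 at -1.98 and -2.16, and Lrp8 at 0.55 and 0.58. Srebf1 was at 0.26 and 0.25 on counts, and at 0.01 and 0.00 with group quality weights. Without a filter on TPM, where the median of all genes was 0.63 and 0.67, Srebf1 was below it, at -0.19 and -0.21, and Lrp8 was at 0.09 and 0.12. With the replicate number as a block Srebf1 was at -0.27 in SCI + Vehicle and 0.09 in SCI + Atorvastatin. The place of Srebf1 against the median gene thus turned with the setting.

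**Figure D2:**
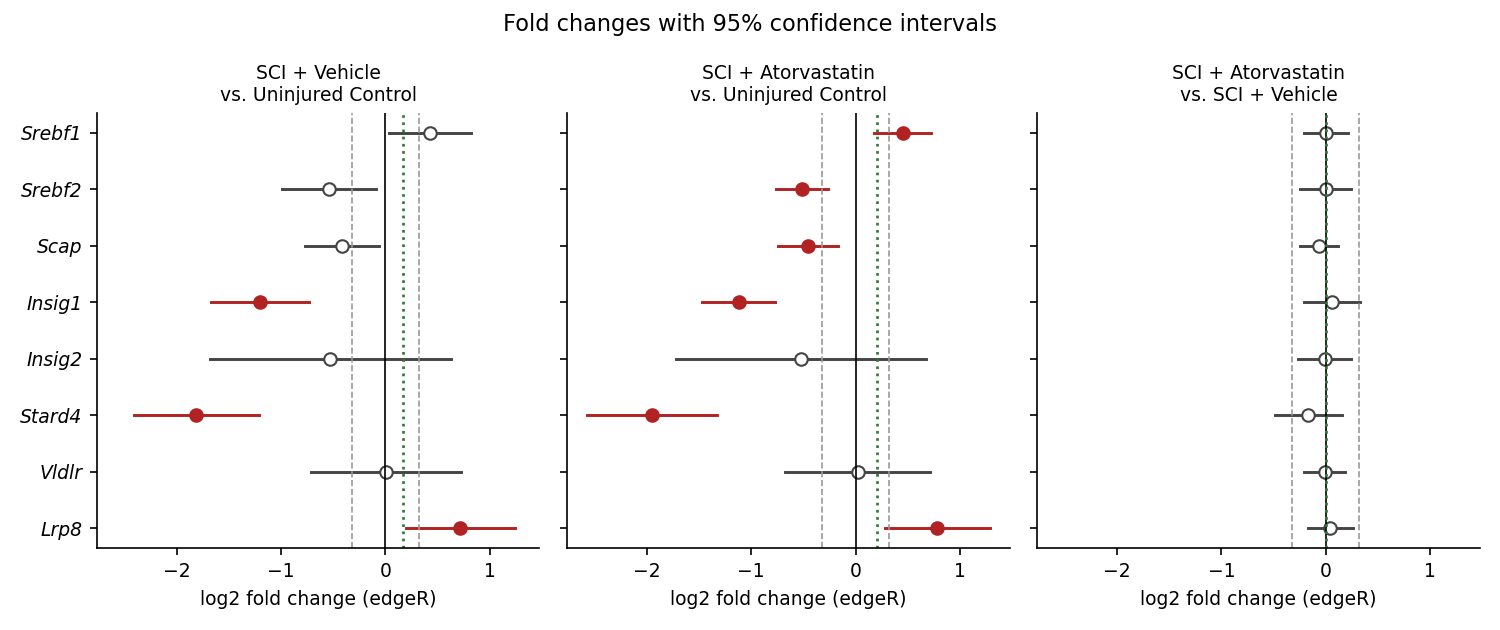
Log2 fold change of each gene (horizontal axes) in the 3 comparisons, with 95% confidence intervals from edgeR. Filled red points were called, dashed lines mark a 25% change and the green dotted line is the median of all genes tested. Intervals against the 2 controls are wide for Insig2 and Vldlr, and all 8 points of SCI + Atorvastatin vs. SCI + Vehicle lie between -0.17 and 0.06.

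Atorvastatin and vehicle mice were compared with 7 mice on each side. In this comparison a gene was called at an unadjusted p below 0.001 with a change above 25%, and 0.106% of all genes were, 17 in number. At an adjusted p below 0.05 there were 0, while 1132 genes (7.03%) had an unadjusted p below 0.05. The smallest p of edgeR among the 8 genes, before adjustment, was that of Stard4 at 0.301. DESeq2 called 37 genes and none of the 8, with Stard4 at an unadjusted p of 0.324. Some cell markers leaned to 1 side between these groups, though 0 were called. All 6 fibroblast markers were higher with atorvastatin at an unadjusted edgeR p below 0.05 (median log2 fold change 0.94). All 8 neuron markers were below 0 (median -0.15), while astrocyte markers split, 5 above 0 and 3 below. The part of cell content in this comparison was not tested.

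The intervals say how large a difference between the treatment groups could be in whole tissue. Insig1 was at 0.06 (95% interval -0.20 to 0.33), or 4.43% higher with -13.2% to 25.6%. Srebf2 was at 0.00 (-0.24 to 0.25) and Srebf1 at -0.00 (-0.21 to 0.21). Both SREBP genes were thus within 25% of the vehicle level in either direction by these intervals. Scap was at -0.07 (-0.25 to 0.12) and Insig2 at -0.01 (-0.26 to 0.25). Stard4 had the lowest estimate and the widest interval, -0.17 (-0.49 to 0.16), or 10.8% lower with -28.8% to 11.6%. The receptors were at -0.01 (-0.20 to 0.18) for Vldlr and 0.05 (-0.17 to 0.26) for Lrp8. The groups overlapped for every one of the 8 genes, as for all but 0.0621% of genes in TPM.

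Ratios within a library compare the balance of the pathway without regard to depth. Srebf1 to Srebf2 differed by -0.02 in mean log2 ratio between SCI + Atorvastatin and SCI + Vehicle (exact permutation test, two-sided p = 0.882). Insig1 to Insig2 differed by 0.09 (exact p = 0.537). Insig1 to Scap, brake to escort, differed by 0.14 (exact p = 0.287), with 6 of 7 atorvastatin mice above the vehicle median. Vldlr to Lrp8 differed by -0.06 (exact p = 0.705). Adjusted over the 4 ratios each p was 0.882. In the controls the log2 ratio of Insig1 to Insig2 was 0.42 and 3.22, and that of Vldlr to Lrp8 was -0.77 and 1.75, spreads beyond those of all injured mice.

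**Figure D3:**
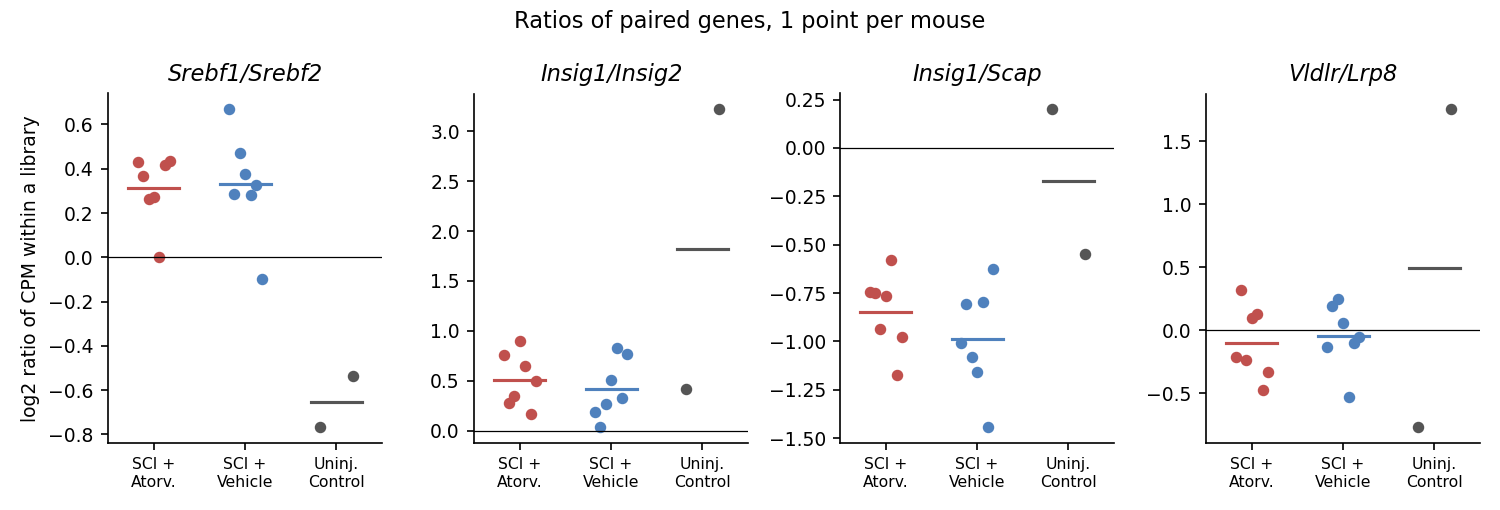
Log2 ratio of CPM of 4 gene pairs within each library (vertical axes) by group, with points for mice and lines for group means. The groups of injured mice overlap in every panel, and only in the panel of Srebf1 to Srebf2 and that of Insig1 to Scap do both controls lie on 1 side of all injured mice. For Insig1 to Scap the gap is narrow, with control mouse 2 at -0.546 and SCI + Atorvastatin replicate 5 at -0.578.

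The other genes of the pathway give the surroundings of these changes. The lists were chosen with earlier results of these data known, so their direction is no independent evidence. Of 20 genes of sterol synthesis, 12 fell and 0 rose in SCI + Vehicle against the controls, with a median log2 fold change of -1.16, and 13 fell and 0 rose in SCI + Atorvastatin, with a median of -1.26. Lower calls made up 9.91% and 14% of all genes. On log2(TPM + 1), 12 and 15 fell, and 0 and 1 rose. Msmo1, a methylsterol oxidase, was at 120 and 175 TPM in the controls and 46.8 ± 8.03 TPM in SCI + Vehicle (SD, n = 7), a log2 fold change of -1.86 ± 0.185 (edgeR adjusted p = 0.000113). Fdps, which makes farnesyl diphosphate, fell by 1.89 on the log2 scale. In SCI + Atorvastatin, Hmgcs1, which feeds the pathway, was at 82.2 ± 10.1 TPM against 147 and 258 TPM in the controls (log2 fold change -1.44).

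Genes that process SREBP and sense sterols were called in both directions. Of 17 genes, 4 rose and 1 fell in SCI + Vehicle, and 7 rose and 1 fell in SCI + Atorvastatin. Higher calls made up 19.9% and 24.9% of all genes, so the count in SCI + Vehicle is near the background. With group quality weights, and with the replicate block, 0 of the 17 were called. Sp1, which binds GC boxes beside SREBP, was at 6.10 and 3.04 TPM in the controls and 22.8 ± 2.91 TPM in SCI + Vehicle (log2 fold change 1.89). Rnf145, a sterol-responsive ubiquitin ligase, rose by 0.64 and 0.68 on the log2 scale. The coat proteins that carry SCAP out of the endoplasmic reticulum split, where Sec24a rose by 0.55 and Sec23a fell by 0.55 in SCI + Vehicle. On log2(TPM + 1) neither of these coat genes passed, at an adjusted p of 0.105 and 0.186. Faf2, which takes part in the breakdown of proteins of this membrane, rose by 0.51 in SCI + Atorvastatin.

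Genes of fatty acid synthesis, the side driven mainly by SREBP1, were mixed. Of 13 genes, 2 rose and 6 fell in each injured group. Higher calls made up 19.9% and 24.9% of all genes in SCI + Vehicle and SCI + Atorvastatin, and lower calls 9.91% and 14%. With group quality weights, and with the replicate block, 0 of the 13 were called. Scd1, a desaturase, was at 434 and 364 TPM in the controls and 243 ± 20.9 TPM in SCI + Vehicle (log2 fold change -0.95). Fads1, another desaturase, fell by 0.75, and Acly, which supplies acetyl-CoA, fell by 0.68. Gpam, which starts glycerolipid synthesis, rose by 1.03, and Me1, which supplies NADPH, rose by 0.42. Thrsp, a lipogenic regulator, fell by 1.22 in SCI + Atorvastatin on counts, but its TPM were 58.9 and 53.3 in the controls and 57.0 ± 13.7 in the group.

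Among 17 tested genes of lipoprotein uptake and sterol transport, 8 rose and 1 fell in SCI + Vehicle, and 10 rose and 1 fell in SCI + Atorvastatin. Higher calls made up 19.9% and 24.9% of all genes, and lower calls 9.91% and 14%. With group quality weights, and with the replicate block, 0 of the 17 were called. Gramd1a, a carrier of cholesterol from the plasma membrane, was at 30.7 and 22.9 TPM in the controls and 56.1 ± 11.7 TPM in SCI + Vehicle (log2 fold change 1.01). Stard5 and Gramd1c, other sterol carriers, were at 11.1 ± 3.57 and 1.89 ± 0.800 TPM and are listed at 0 in both controls. The carrier Stard4 thus fell where these related carriers were called higher. Many genes chosen for a moderate level in injured cord were at 0 in the controls.

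Of 9 genes of the LXR and cholesterol efflux list, 5 rose and 1 fell in SCI + Vehicle, and 6 rose and 1 fell in SCI + Atorvastatin, against higher calls for 19.9% and 24.9% of all genes. With group quality weights 2 and 2 were called, and with the replicate block 2 and 1. Abca1, which exports cholesterol, was at 16.4 and 16.1 TPM in the controls, 133 ± 25.3 TPM in SCI + Vehicle and 167 ± 7.10 TPM in SCI + Atorvastatin. Its log2 fold changes were 3.00 ± 0.250 and 3.33 ± 0.117. Lpcat3, which remodels phospholipids, rose by 3.69 in SCI + Vehicle, and Soat1, which esterifies cholesterol, rose by 1.17 in SCI + Atorvastatin. Nr1h2, which encodes an LXR receptor, fell by 0.70 and 0.79. The markers of microglia or macrophages rose in the same libraries, 6 and 7 of 8, and their part in these values was not tested.

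Of 7 genes of reelin signalling, which are the ligand gene Reln and 6 genes that act downstream of Vldlr and Lrp8, 0 were called in SCI + Vehicle (edgeR, 0 also at an unadjusted p below 0.05, and 1 by limma on log2(TPM + 1)). Of all genes, 29.8% were called there. In SCI + Atorvastatin 1 of the 7 was called lower, near the 14% of all genes called lower, and 0 higher. This was Dab1, the adaptor of both receptors, at -0.52 on counts, while on log2(TPM + 1) it was at 0.21 (limma, adjusted p = 0.581). Between SCI + Atorvastatin and SCI + Vehicle, 0 genes of the 6 lists were called by edgeR. At an unadjusted edgeR p below 0.05 were 3 of 20 genes of sterol synthesis, 2 of 9 of efflux, 1 of 17 of uptake and 1 of 7 of reelin signalling. SREBP processing had 0 of 17 and fatty acid synthesis 0 of 13. Of all genes tested, 7.03% had such a p.

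**Figure D4:**
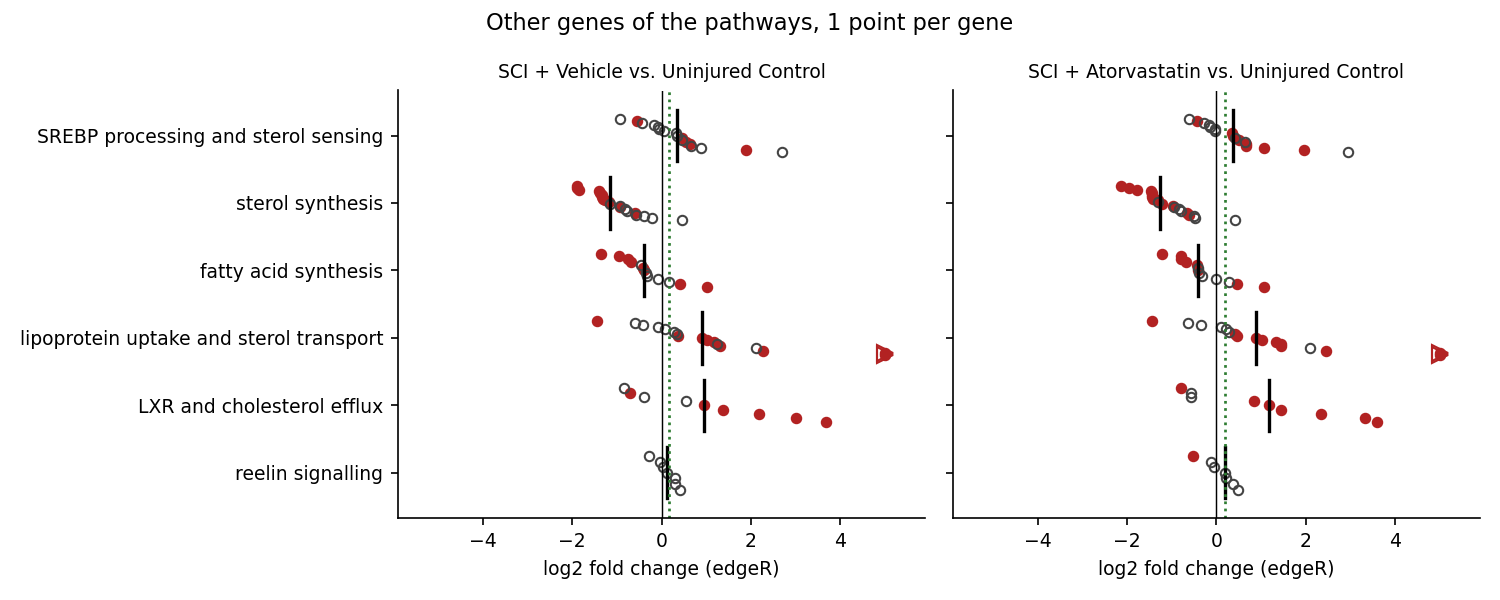
Log2 fold change of each gene of the 6 lists (horizontal axes) against Uninjured Control, with called genes filled in red, black bars for list medians and the green dotted line for the median of all genes. Triangles mark 2 genes listed at 0 in both controls, whose values lie beyond the axis. The sterol synthesis list lies to the left, with medians of -1.16 and -1.26.

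Within the injured mice, Insig1 moved with the sterol synthesis genes from mouse to mouse. The mean log2 CPM of the 20 genes and the log2 CPM of each of the 8 genes were taken as deviations from the mean of the mouse's own group, over 14 mice. For Insig1, Pearson's r was 0.77 (permutation within groups, p = 0.00381, adjusted over the 8 genes 0.0305) and Spearman's rho was 0.78 (permutation p = 0.00335, adjusted 0.0268). The r was 0.79 within SCI + Vehicle and 0.74 within SCI + Atorvastatin. Without the 2 mice farthest from the median of the list, SCI + Vehicle replicate 7 and SCI + Atorvastatin replicate 7, r was 0.60. It was 0.66 to 0.83 when any 1 mouse was left out, and the adjusted p passed 0.05 upward without each of 4 of the mice, SCI + Atorvastatin replicate 7 and SCI + Vehicle replicates 1, 6 and 7, to at most 0.168 without the last. On log2(TPM + 1) r was 0.69 (adjusted permutation p = 0.0693). How many genes outside the 8 followed the list as closely was not counted, and the part of cell content in this r was not tested.

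The other 7 genes did not pass in this test. Vldlr was at 0.41, Insig2 at 0.29, Scap and Srebf2 each at 0.25, Stard4 at 0.11, Lrp8 at 0.02 and Srebf1 at -0.10, with adjusted permutation p from 0.695 to 0.940. Stard4 and Insig2 differed between the groups, at 0.82 and 0.76 within SCI + Vehicle and -0.50 and -0.16 within SCI + Atorvastatin, and the difference was not tested. The level of Srebf2 varied from 68.1 to 145 CPM among vehicle mice, and whether its r differs from that of Insig1 was not tested.

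**Figure D5:**
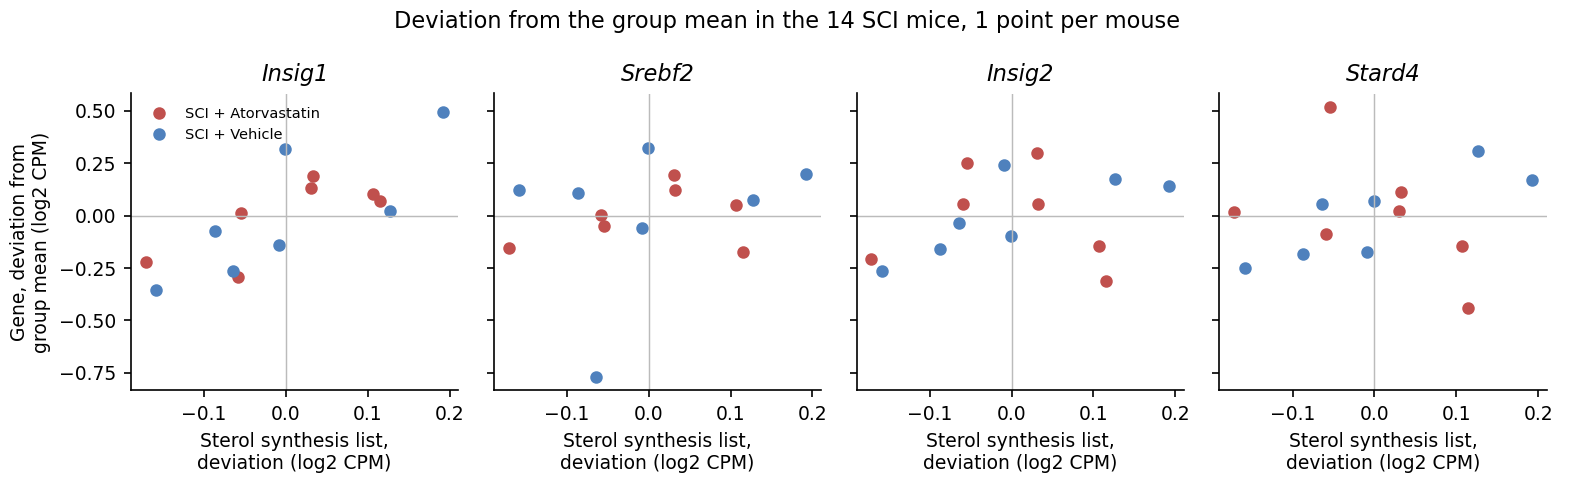
Deviation of Insig1, Srebf2, Insig2 and Stard4 from the group mean in log2 CPM (vertical axes) against that of the mean of the 20 sterol synthesis genes (horizontal axes), 1 point for each of the 14 injured mice. Insig1 rises with the list in both groups (r = 0.77), while SCI + Vehicle replicate 1 lies far below the rest for Srebf2.

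Among themselves the 8 genes fell into loose sets by the same deviations, given as a description over 14 mice from libraries of 1 experiment. Srebf2 had r of 0.70 with Scap, or 0.66 without SCI + Vehicle replicate 1. Srebf2 with Srebf1 was at 0.69, a value that rested on this mouse, since without it r was 0.38. Srebf1 had 0.62 with Scap, or 0.47 without this mouse, and 0.58 with Lrp8, or 0.63. Insig2 had 0.65 with Stard4, and 0.66 without it. Insig1 was nearest to Srebf2, at 0.53, and Insig1 with Insig2 was at 0.27. Vldlr and Lrp8, which share ligands, were at 0.02.

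Of 10857 genes with a mean above 10 CPM, those most like each gene across the injured mice were also looked up. For Srebf2 they were Irf2bp1 (r = 0.96), Tbc1d10b (0.94) and Dnaaf5 (0.94), and for Srebf1 they were Pcnxl3, Fbxl17 and Wwc2, each at 0.89. For Scap they were U2af2 (0.92), Igsf8 (0.87) and Agpat3 (0.87). Insig1 was most like Tprgl (0.91), Cdk14 (0.89) and Spock3 (0.89), and Insig2 most like Syk (0.82), Serpine2 (0.80) and Mgll (0.78). Stard4 was most like Dctn4 (0.81), Sco1 (0.79) and Bag5 (0.78). Vldlr was most like Prkar2b (0.86), Cul5 (0.83) and Camk4 (0.81), and Lrp8 most like Nfasc (0.84), Fnbp1 (0.83) and Plxna4 (0.83). Within each group alone these values ran from 0.62 to 0.94 in SCI + Atorvastatin and from 0.42 to 0.99 in SCI + Vehicle. The widest gaps were those of Sco1 with Stard4 (0.94 and 0.42), Fbxl17 with Srebf1 (0.62 and 0.98) and Wwc2 with Srebf1 (0.65 and 0.97), and Irf2bp1 with Srebf2 was at 0.71 and 0.99. Without SCI + Vehicle replicate 1, the 3 genes given for Srebf2 were at 0.79, 0.81 and 0.76. No gene of sterol synthesis was among the 3 most like any of the 8.

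Set side by side per unit of length, the order in SCI + Vehicle was Srebf1 (83.6 ± 17.2 TPM, SD, n = 7), Srebf2 (63.6 ± 16.0), Scap (37.9 ± 6.48), Insig1 (31.5 ± 6.30), Lrp8 (29.1 ± 6.51), Vldlr (23.9 ± 4.73), Insig2 (23.9 ± 5.01) and Stard4 (8.40 ± 2.27). Neighbours from Srebf1 to Insig2 overlapped in range, Srebf2 with Scap only through the Srebf2 value of SCI + Vehicle replicate 1, at 32.6 TPM. Stard4 lay below all the others in every vehicle mouse. In the controls the order differed, with Srebf2 (88.5 and 81.5 TPM) above Srebf1 in both mice and Insig1 (66.2 and 58.7 TPM) also above it.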

How the data were processed

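RNA from the cord of 16 mice was sequenced from total RNA with a stranded kit. Per the labels, the authors used FastQC 0.12.1, Trimmomatic 0.38, STAR 2.5.4b, RSEM 1.3.1 and mm10. They deposited whole-number counts, which carry no normalization and whose counting step is not given in the sources used here, and TPM, which are normalized for gene length. A gene can hold TPM without counts and the scale between them varies by mouse, so both are given where they differ. Groups come from the sample labels. The labels and the paper's methods differ slightly on the day of tissue collection, and the labels were followed.

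A gene was tested when any of the 3 groups averaged over 1 TPM. The test was the quasi-likelihood test of edgeR 4.0.16 in R 4.3.3, with TMM factors, library sizes over all genes and a fit on the 2 groups of each comparison. Alternatives used DESeq2 1.42.0 and limma 3.58.1. Ratios were tested by exact permutation over 3432 assignments of mice to groups and correlations by 100000 permutations within groups. Gene positions are those of GENCODE M21 and promoters those of RefSeq, both on GRCm38. Depth gives a floor of 3 counts of a library, 0.117 to 0.202 CPM, for counting error only. The methods were checked on simulated data with known changes.

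The members and lists were chosen with earlier results of these data known. Named genes are the 8 genes, up to 3 called genes per list and direction with the smallest p, and the 3 genes most like each of the 8. Beside the 6 pathway lists, 10 marker lists were read. A few single genes are left out of the text. Same-numbered mice were not treated as pairs. Likeness between genes without SCI + Vehicle replicate 1 and within each group was added after the values were seen.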

Additional observations from a re-analysis of the deposited data

Results flagged for a closer look

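In SCI + Atorvastatin replicate 5, the log2 ratio of Srebf1 to Srebf2 in CPM was 0.0, below the other 6 mice of its group. Its gap to the nearest mouse was 0.606 of the range of the group, against a critical value of 0.568 for 7 mice. Among 24 groups of values checked this was the only such mouse, and chance flags about 1 in 20.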

How the results depend on the processing

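The 2 uninjured mice limit every comparison with them. With group quality weights, called genes were 154 in SCI + Vehicle and 186 in SCI + Atorvastatin against Uninjured Control, and 10 between treatments, with 1 and 1 of the 8 genes called against controls. In the lists in the order of the report (sterol synthesis, SREBP processing, fatty acid synthesis, uptake, efflux, reelin) this gave 4, 0, 0, 0, 2 and 0 in SCI + Vehicle and 5, 0, 0, 0, 2 and 0 in SCI + Atorvastatin. Same-numbered mice did not deviate together (correlations -0.204 to 0.123), so the numbers do not pair them. With the replicate number as a block, on mice 1 and 2 of each group against controls, calls were 83 and 42 genes, 0 and 0 of the 8, and 8 genes between treatments, with at most 2 in any list (sterol synthesis 1 and 0, efflux 2 and 1, the other lists 0). On genes above 1 TPM in every group, 2394, 3693 and 11 genes were called. With all 3 groups in 1 fit, 1 gene was called between treatments. Against controls this fit called 6586 of 16091 genes in SCI + Vehicle, with 6 of the 8 genes and 9 of SREBP processing. In SCI + Atorvastatin it called 7126, with 3 of reelin. DESeq2 called 37 genes between treatments. Against controls it called 6000 genes in SCI + Vehicle, with 5 of the 8. In SCI + Atorvastatin it called 7207, with 2 of reelin. Without a TPM filter 4835 of 20979 genes were called in SCI + Vehicle, with 3 of SREBP processing. On log2(TPM + 1) and log2(TPM + 0.1), 4452 and 4921 genes were called in SCI + Vehicle. Fatty acid synthesis had 4 and 5 calls there and reelin 1 and 1. In SCI + Atorvastatin 6316 and 6727 genes were called, with 3 and 3 of reelin. Of the genes called in SCI + Vehicle 3195 were higher and 1594 lower on counts, and 3763 and 689 on log2(TPM + 1). The causes were not tested.

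Correlations on log2(TPM + 1) were 0.69 for Insig1, past the threshold no longer, and 0.34 for Srebf1, where the sign turned. Fold changes near 0 also changed sign, and so did that of Insig2 against controls. In the main edgeR fit it was not near 0, at -0.53 in both injured groups. Against controls, Insig2 was at 0.35, 0.41, 0.28 and 0.30 in SCI + Vehicle and at 0.36, 0.43, 0.24 and 0.21 in SCI + Atorvastatin on log2(TPM + 1), on log2(TPM + 0.1), with group weights and with the replicate block. Vldlr was at -0.01 in both with DESeq2 (-0.0076 and -0.0093) or its size factors (-0.0079 and -0.0095). Between treatments, Insig2 was at 0.011 and 0.012 on the TPM scales, Srebf1 at 0.00054 without a filter, 0.011 with the block and 0.013 with weights, Srebf2 at -0.00074 with DESeq2 and its size factors and -0.0020 with the stricter filter, and Vldlr at 0.0056 with weights.

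With each mouse left out in turn, a lone control was assumed to vary like the injured mice. Genes called ranged from 3839 to 7806 in SCI + Vehicle, from 5582 to 9826 in SCI + Atorvastatin and from 5 to 32 between treatments. The highest counts were those without 1 control against controls, and without SCI + Vehicle replicate 1 between treatments, where each mouse but SCI + Atorvastatin replicates 1 and 4 and SCI + Vehicle replicates 3 and 6 moved the count by over 1.5 times when left out. Of the 8 genes, 2 to 6 were called in SCI + Vehicle, 6 of them without control mouse 1. In SCI + Vehicle, SREBP processing had 2 to 8 calls, fatty acid synthesis 5 to 9 and reelin 0 to 3, and in SCI + Atorvastatin reelin had 0 to 4. Against controls, Insig2 ranged from -1.39 to 1.76 and from -1.38 to 1.77, and Vldlr from -0.59 to 1.06 and from -0.58 to 1.07, with the ends set by the control left out. Between treatments, Srebf1 ranged from -0.0641 to 0.0462, Srebf2 from -0.0983 to 0.0553, Insig1 from -0.00085 to 0.16, Insig2 from -0.0616 to 0.0399, Vldlr from -0.0599 to 0.0358 and Lrp8 from -0.0123 to 0.128, and none was called. The difference in log2 ratio ranged from -0.0889 to 0.0387 for Srebf1 to Srebf2 and from -0.136 to 0.00664 for Vldlr to Lrp8. The correlation with the sterol synthesis list ranged from 0.66 to 0.83 for Insig1, from -0.28 to 0.10 for Srebf1, from -0.0298 to 0.36 for Stard4 and from -0.13 to 0.11 for Lrp8.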
